A study of Danio rerio with 8 samples.

Results

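The ephrins and Eph receptors of the zebrafish were followed in spinal cord RNA-seq libraries from mstnb mutants and wild types, before and after injury. Members were chosen by gene symbol alone, as every entry beginning with efna, efnb, epha or ephb and a digit. This gave 28 of the 25309 entries, made up of 8 efna, 5 efnb, 8 epha and 7 ephb genes, so 13 ligand genes and 15 receptor genes. The 4 groups were mstnb mutant (-/-) cord 1 week post injury (1 wpi), wild type cord 1 wpi, uninjured mstnb mutant cord and uninjured wild type cord, with 2 libraries each. The mutation is in mstnb, a gene for myostatin, a secreted TGF-beta family factor known for limiting muscle growth, and the wild types came from the same families. Injury was a complete transection 4 mm caudal to the brainstem. RNA was taken from a 2 mm piece of cord, which in injured fish held the lesion and tissue on either side of it. The fish were adults of both sexes, 3 to 9 months old. The labels do not say how many fish went into a library, nor that libraries of a group came from separate fish; a p-value therefore reflects how far these libraries scatter, and that scatter may be technical.

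Ephrins are ligands that stay attached to the cell that makes them, and Eph receptors are receptor tyrosine kinases on the neighbouring cell. Ephrin-A proteins are held by a lipid anchor and bind mainly EphA receptors, while ephrin-B proteins span the membrane and bind mainly EphB receptors; EphA4 also binds ephrin-B. Contact signals into both cells and commonly ends in repulsion, by which growing axons are steered, tissue borders are kept and arteries and veins are set apart. In mice, EphA4 and ephrin-B3 keep corticospinal axons from crossing the midline of the cord, and both have been studied as barriers to axon growth after spinal cord injury. Zebrafish carry many of these genes as a and b copies.

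The libraries held 20082743 to 33410514 reads, and the deposited values are CPM, reads scaled to the library total. Values below are CPM rescaled by TMM factors, which set libraries on a common scale for most genes; the factors ran between 0.677 in mutant uninjured library 1 and 1.19 in wild type 1 wpi library 3. They are not corrected for gene length, so levels are compared between libraries and not between genes. mstnb itself had 10.6 and 14.9 scaled CPM in mutant 1 wpi and 42.6 and 35.5 in wild type 1 wpi. In uninjured cord it had 15.1 and 24.9 in mutants and 58.7 and 74.6 in wild type. Both mutant groups thus lay below the wild type group of the same state. limma did not call mstnb between genotypes (adjusted p = 0.44 in uninjured cord, 0.18 at 1 wpi and 0.0513 for their average). In the labelled tissue, all 20 neuron markers and all 12 Hox genes checked had reads. The uninjured wild type libraries stood furthest apart, with a correlation of log2 values across genes of 0.901, against 0.957 to 0.979 within the other groups. Among the injured libraries, the summed oocyte markers were 2023 and 553 scaled CPM in mutants and 10.5 and 7.13 in wild type. In uninjured cord they were 216 and 31.1 in mutants and 2356 and 311 in wild type. The summed liver markers reached 9245 scaled CPM in wild type uninjured library 1, against 78.3 to 1008 in the other 7 libraries.

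Of the ligands and receptors, 1 gene changed with injury past the threshold: efna1b, an ephrin-A1 gene, fell. Ephrin-A1 is known from human and mouse cells as a ligand of EphA2. efna1b had 14.8 and 11.4 scaled CPM in mutant 1 wpi and 14.97 and 18.8 in wild type 1 wpi, against 22.9 and 26.9 in uninjured mutants and 34.2 and 29.98 in uninjured wild type. All 4 injured libraries lay below all 4 uninjured ones. Averaged over the genotypes, the log2 change was −0.89 ± 0.19 (SE, n = 2 in each of 4 groups; limma, Benjamini-Hochberg adjusted p = 0.0185 over 19114 genes). In that comparison 2.97% of all genes tested were called lower and 8.46% were called in either direction, beside 1 of the 26 ephrin and Eph genes tested, or 3.85%, a share near that of all genes called lower. The change was −0.88 in mutants (adjusted p = 0.167) and −0.89 in wild type (adjusted p = 0.106), and neither genotype alone passed limma's threshold. Fewer cells of a type and less RNA per cell cannot be told apart in these bulk libraries.

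The call for efna1b was lost, with limma adjusted p between 0.0601 and 0.133 and changes of −0.76 to −0.94, when any 1 of the 4 injured or 2 uninjured mutant libraries was left out. It held without uninjured wild type library 1 (adjusted p = 0.00806) or library 2 (adjusted p = 0.00408). It also depended on the scaling. As deposited, efna1b had 16.6 and 13.6 CPM in mutant 1 wpi and 15.9 and 22.3 in wild type 1 wpi, against 15.5 and 28.6 in uninjured mutants and 28.5 and 30.1 in uninjured wild type, so mutant uninjured library 1 fell among the injured ones. On those values the change was −0.54 (limma adjusted p = 0.198), while the median of all genes stood at 0.31, against 0.02 after TMM scaling. The share of reads from the mitochondrial genome also separated the states, at 3.74 to 4.19% in injured and 7.13 to 10.2% in uninjured libraries, as did several cell type marker sums. Oligodendrocyte markers, 10 of 10 in the table, summed to 37393 to 47942 scaled CPM in injured and 87105 to 198720 in uninjured libraries, a sum carried by the myelin gene mbpa, with 28284 to 35221 and 77029 to 182970. The list did not move with its sum: 7 of the 10 oligodendrocyte markers had an averaged injury change above 0, and 3 were called higher and 0 lower. Macrophage and microglia markers, 13 of 14 in the table, summed to 11818 to 17659 in injured and 1160 to 1949 in uninjured libraries, with 9 of 13 called higher. That sum was carried by apoeb, with 10522 to 16135 in injured and 758 to 1233 in uninjured libraries. Skeletal muscle markers, 18 of 18, summed to 1556 to 3296 in injured and 8419 to 37536 in uninjured libraries, with 15 of 18 called lower. Endothelium and pericyte markers, 13 of 13, summed to 378 to 435 in injured and 397 to 779 in uninjured libraries, and here the groups overlapped, with 3 called higher and 1 lower. No marker on these 4 lists was at 0 in every library, and the part of the marker lists and of the mitochondrial share in the efna1b result was not tested.

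**Figure D1:**
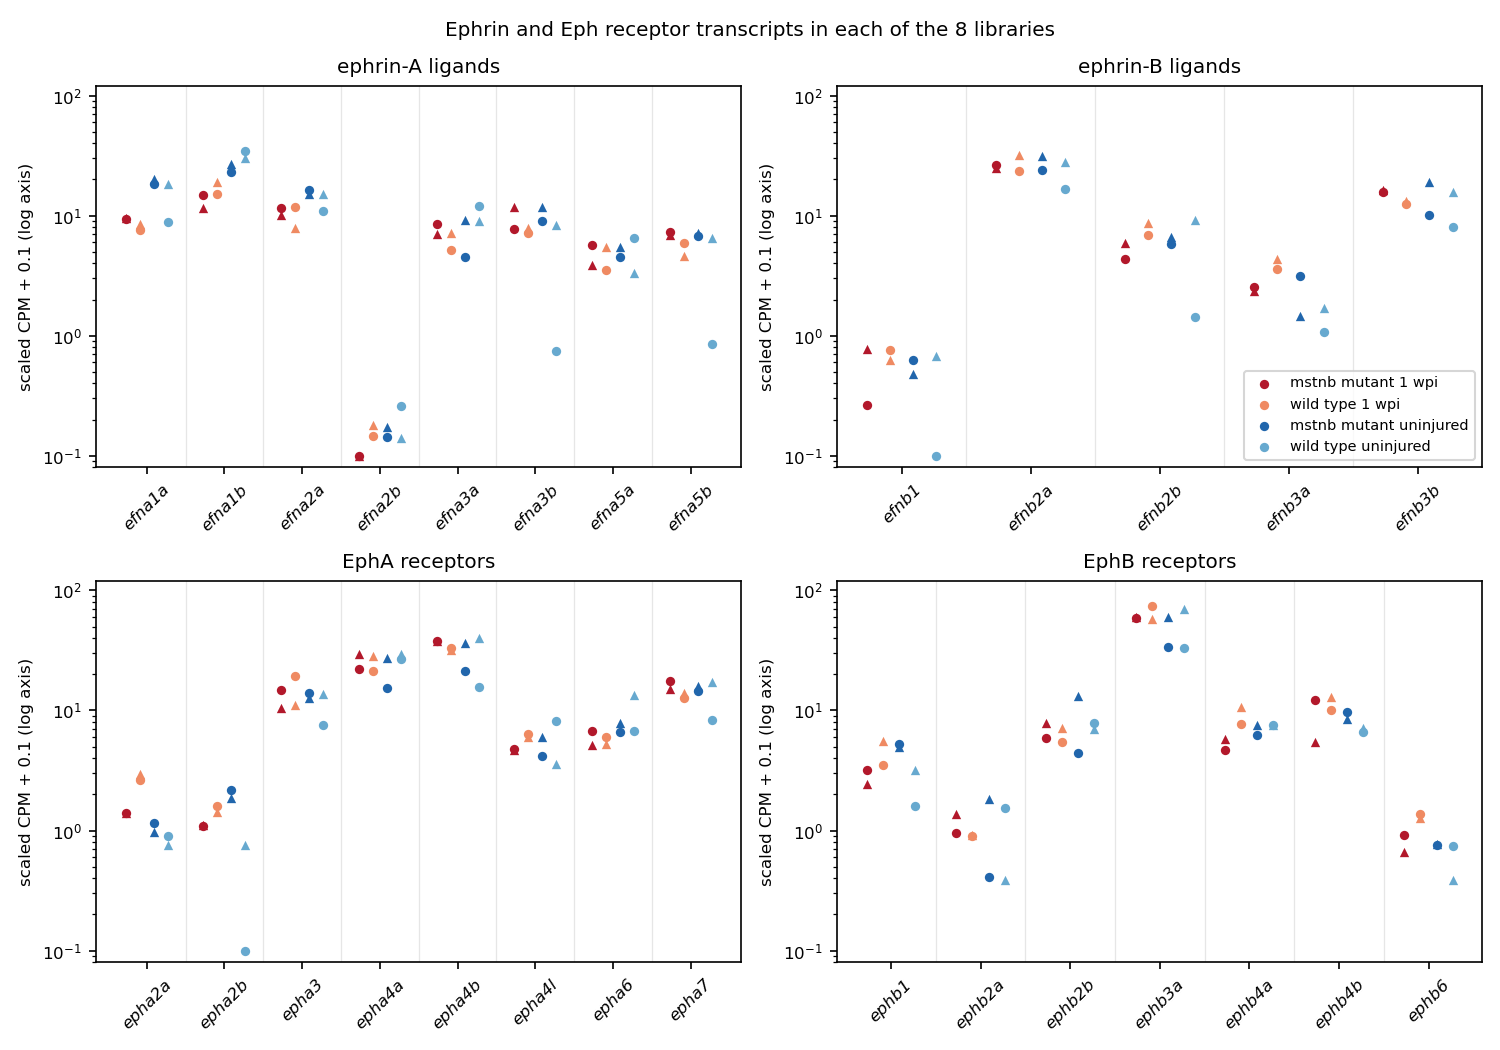
TMM-scaled CPM of the 28 members in every library by subfamily (log axis, 0.1 added to each value), with circles for the library numbered 1 and triangles for the other library of a group. All 4 injured efna1b points lie below the 4 uninjured ones, and the circle of uninjured wild type lies far below the other points for efna3b, efna5b, efnb2b and epha2b.

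efna1a, the other ephrin-A1 copy, had 9.24 and 9.48 scaled CPM in mutant 1 wpi and 7.46 and 8.39 in wild type 1 wpi, against 18.4 and 20.1 in uninjured mutants and 8.69 and 18.2 in uninjured wild type. Both injured groups lay below their uninjured groups, but wild type uninjured library 1 stood beside the injured libraries. As deposited, wild type uninjured library 1 had 7.23 CPM, below every injured library. The averaged log2 change of efna1a was −0.79 ± 0.25 and did not pass (limma adjusted p = 0.0779). Neither did it on CPM as deposited (−0.45, limma adjusted p = 0.373). With the library number as a block, where injured wild type rests on its library 1, it was −0.73 and did not pass. It also did not pass without any 1 injured or uninjured mutant library (−0.71 to −0.80), or without wild type uninjured library 2 (−0.52). Without wild type uninjured library 1 it was −1.04 and passed (limma adjusted p = 0.00246), where 14.7% of all genes were called, and DESeq2 called efna1a with all libraries (adjusted p = 0.011).

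Other ephrin-A genes did not pass. In mice, ephrin-A2 and ephrin-A5 are known for guiding retinal axons to their targets in the midbrain. efna2a ran from 7.78 scaled CPM in wild type 1 wpi to 16.2 in uninjured mutants. efna3a, an ephrin-A3 gene, ran from 4.42 to 12.01 and efna5a from 3.24 to 6.38. efna2b had 0 to 3 reads in any library and was not tested. efna3b and efna5b were singled out after their values were seen, because 1 library set their changes.

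efna3b had 7.64 and 11.6 scaled CPM in mutant 1 wpi and 7.04 and 7.82 in wild type 1 wpi. In uninjured cord efna3b had 8.85 and 11.8 in mutants and 0.644 and 8.20 in wild type. The value of 0.644 rests on 12 reads in wild type uninjured library 1, against 150 to 313 reads in the other libraries. efna5b had 7.19 and 6.84 scaled CPM in mutant 1 wpi and 5.87 and 4.54 in wild type 1 wpi. In uninjured cord efna5b had 6.68 and 7.07 in mutants and 0.751 and 6.40 in wild type. The low value is again from wild type uninjured library 1, with 14 reads against 112 to 188 elsewhere. By symbol, efna3b and efna1b are direct neighbours in the RefSeq annotation of the zebrafish assembly GRCz12tu, with 0 protein-coding genes between them, while efna3a and efna1a are separated by 2. The assembly the authors used is not given in the sources used here.

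Summed over the 8 efna genes, the ephrin-A level was 64.3 and 60.1 scaled CPM in mutant 1 wpi and 55.5 and 59.9 in wild type 1 wpi, against 81.9 and 95.5 in uninjured mutants and 73.7 and 89.8 in uninjured wild type. The 4 injured libraries lay below the 4 uninjured ones. In CPM as deposited the sums were 71.9 and 71.2 in mutant 1 wpi and 58.9 and 71.1 in wild type 1 wpi, against 55.4 and 101 in uninjured mutants and 61.3 and 90.1 in uninjured wild type, and they overlapped. The sum weights the abundant copies, and no test was run on it.

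No ephrin-B gene passed. efnb2a encodes an ephrin-B2, which in zebrafish marks arteries. efnb2a had 26.4 and 24.7 scaled CPM in mutant 1 wpi and 23.2 and 32.1 in wild type 1 wpi, against 23.98 and 31.1 in uninjured mutants and 16.5 and 27.97 in uninjured wild type. The groups overlapped in each injury comparison, and the averaged log2 change was 0.12 ± 0.22, with a 95% interval of −0.36 to 0.60. efnb3b, an ephrin-B3 gene, had 15.6 and 16.3 scaled CPM in mutant 1 wpi and 12.4 and 13.2 in wild type 1 wpi. In uninjured cord efnb3b had 10.04 and 19.1 in mutants and 7.88 and 15.7 in wild type, a range that took in every injured value. The averaged change of efnb3b was 0.18 ± 0.27, with a 95% interval of −0.41 to 0.78.

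The other ephrin-B3 copy, efnb3a, chosen after its values were seen, had 2.45 and 2.27 scaled CPM in mutant 1 wpi and 3.47 and 4.26 in wild type 1 wpi. In uninjured cord efnb3a had 3.05 and 1.35 in mutants and 0.965 and 1.60 in wild type. In wild type both injured values of efnb3a lay above both uninjured ones (log2 change 1.101 ± 0.39, limma adjusted p = 0.162), while in mutants the groups overlapped (0.12 ± 0.39, limma adjusted p = 0.948). efnb2b ran from 4.29 to 9.06 scaled CPM outside wild type uninjured library 1, where it had 1.34. efnb1 had at most 0.669 scaled CPM, had 0 reads in wild type uninjured library 1, and was not tested.

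Among EphA receptors, the axon guidance receptor EphA4 has epha4a, epha4b and an entry named epha4l. epha4b had 37.9 and 37.4 scaled CPM in mutant 1 wpi and 33.2 and 31.6 in wild type 1 wpi, against 21.0 and 36.6 in uninjured mutants and 15.6 and 39.7 in uninjured wild type. The injured libraries lay within 31.6 to 37.9, while the uninjured pairs were spread on either side of that range in wild type. The averaged log2 change of epha4b was 0.39 ± 0.28, with a 95% interval of −0.23 to 1.02. epha4a had 21.99 and 29.2 scaled CPM in mutant 1 wpi and 21.1 and 28.5 in wild type 1 wpi, against 15.4 and 27.3 in uninjured mutants and 26.8 and 29.6 in uninjured wild type. The groups overlapped in every comparison, and the averaged change of epha4a was 0.05 ± 0.22, with a 95% interval of −0.45 to 0.55. epha4l ran from 3.49 to 7.99 scaled CPM.

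EphA2, known in mammals from epithelia and as a receptor of ephrin-A1, had low levels of both copies, which were singled out after their values were seen. epha2a had 1.31 and 1.30 scaled CPM in mutant 1 wpi and 2.53 and 2.88 in wild type 1 wpi, against 1.06 and 0.864 in uninjured mutants and 0.804 and 0.656 in uninjured wild type. Injured values lay above uninjured ones in both genotypes. The log2 change of epha2a was 0.23 ± 0.34 in mutants (limma adjusted p = 0.858) and 1.099 ± 0.34 in wild type (limma adjusted p = 0.115), and 0.67 ± 0.24 on average (limma adjusted p = 0.121). These values come from 15 to 71 reads a library. In uninjured cord epha2a had 0.658 to 0.918 deposited CPM, so it was tested only through the injured groups. The groups where epha2a is high thus also let it pass the filter.

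epha2b had 0.981 and 1.00 scaled CPM in mutant 1 wpi and 1.502 and 1.34 in wild type 1 wpi. In uninjured cord epha2b had 2.08 and 1.77 in mutants and 0 and 0.656 in wild type. Injured values of epha2b were thus below the uninjured ones in mutants and above them in wild type. Its log2 change was −0.55 ± 0.37 in mutants (limma adjusted p = 0.613) and 0.91 ± 0.37 in wild type (limma adjusted p = 0.213). The 0 in wild type uninjured library 1 allows up to 0.134 CPM on the deposited scale, the worth of 3 reads there; this covers counting error only.

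The remaining EphA receptors did not pass. epha3 ran from 7.45 to 19.4 scaled CPM and epha7 from 8.15 to 17.3, each with its lowest value in wild type uninjured library 1. epha6 ran from 5.02 to 13.2 scaled CPM. Its highest value was in wild type uninjured library 2, and epha6 was called lower with injury only when library 1 of both uninjured groups was left out together, an alternative added after the data were seen that called 20% of all genes in the average and 13.2% in wild type.

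Of the EphB receptors, ephb3a had 58.9 and 60.0 scaled CPM in mutant 1 wpi and 73.4 and 57.8 in wild type 1 wpi, against 33.4 and 59.6 in uninjured mutants and 33.0 and 69.7 in uninjured wild type. Library 1 of each uninjured group was low, and the other lay among the injured values. The averaged log2 change of ephb3a was 0.42 ± 0.26, with a 95% interval of −0.16 to 1.00. ephb4b, a copy of EphB4, which is known from mice as a receptor of ephrin-B2 on veins, had 12.1 and 5.35 scaled CPM in mutant 1 wpi and 10.05 and 12.8 in wild type 1 wpi. In uninjured cord ephb4b had 9.60 and 8.34 in mutants and 6.49 and 7.01 in wild type. Injured ephb4b values lay above uninjured ones in wild type and on either side of them in mutants, and the averaged change was 0.27 ± 0.27, with a 95% interval of −0.32 to 0.86.

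ephb4a, which marks veins in zebrafish embryos, had 4.58 and 5.72 scaled CPM in mutant 1 wpi and 7.60 and 10.5 in wild type 1 wpi. In uninjured cord ephb4a had 6.19 and 7.40 in mutants and 7.51 and 7.42 in wild type. Mutant libraries lay below wild type ones in both states, with a log2 difference of −0.70 ± 0.32 at 1 wpi (limma adjusted p = 1) and −0.12 ± 0.32 in uninjured cord (limma adjusted p = 0.944). In CPM as deposited the uninjured genotypes overlapped for ephb4a, with 4.19 and 7.86 in mutants and 6.25 and 7.45 in wild type. ephb1 had 3.07 and 2.34 scaled CPM in mutant 1 wpi and 3.43 and 5.51 in wild type 1 wpi, against 5.18 and 4.85 in uninjured mutants and 1.502 and 3.12 in uninjured wild type. Injured ephb1 values were below uninjured ones in mutants and above them in wild type. ephb4a and ephb1 were chosen after their values were seen. ephb2b ran from 4.34 to 13.1 scaled CPM and ephb2a from 0.287 to 1.73. ephb6, whose mammalian protein lacks kinase activity, ran from 0.287 to 1.27. ephb2a and ephb6 were tested because at least 1 group mean reached 1 deposited CPM, while their means over all libraries did not.

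**Figure D2:**
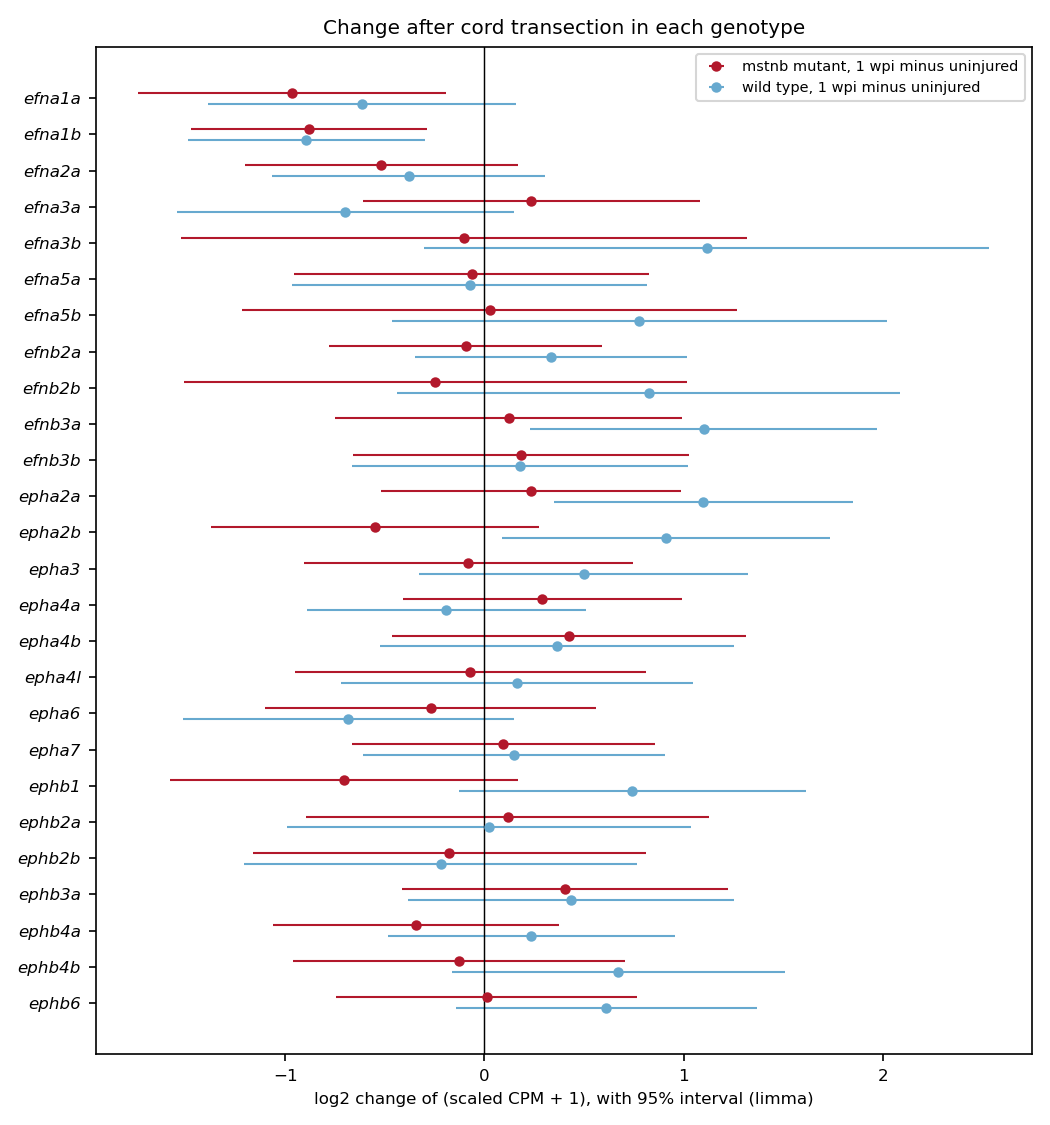
log2 change with injury (1 wpi minus uninjured) of the 26 tested members in mutants and in wild type, with limma's 95% intervals, grouped by subfamily. The intervals of efna1b lie below 0 in both genotypes and that of efna1a in mutants; in wild type those of efnb3a, epha2a and epha2b lie above 0, and all the others include 0. These intervals are not adjusted for the number of genes.

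Within wild type, 0 of 26 members were called with injury, where 3.39% of all genes tested were called; by unadjusted limma p under 0.05 there were 4 members, or 15.4%, against 19.4% of all genes. edgeR called 0 members there, against 2.66% of all genes, and DESeq2 called 1, efna1b, where DESeq2 called 8.93% of all genes. In mutants 0 of 26 members were called, against 1.27% of all genes, and 2 had an unadjusted limma p under 0.05, or 7.69% against 12.9% of all genes. edgeR called 0 members in mutants, against 0.889% of all genes, and DESeq2 called 0, against 4.65%. For the average over genotypes, 3 members, efna1a, efna1b and epha2a, had an unadjusted limma p under 0.05, or 11.5% against 23.5% of all genes. There edgeR called 1 member, efna1b, and 7.86% of all genes, and DESeq2 called 2 members, efna1a and efna1b, and 14.4% of all genes. In wild type, 7 members had both injured values above both uninjured ones (26.9%, against 24.6% of all genes tested) and 4 had both below (15.4%, against 21.5%). The 7 take in ephb6, which was tested only through its mean in wild type 1 wpi. They also take in epha2a, which was tested only through the injured groups. In mutants 2 members lay entirely above (7.69%, against 26.4%) and 6 entirely below (23.1%, against 23.7%). epha2a is 1 of these 2, and also 1 of the 3 members with an unadjusted limma p under 0.05 in the average. These places of ephb6 and epha2a support nothing. The SE of a member's change within 1 genotype was 0.267 to 0.640, so its 95% interval reached 0.593 to 1.42 on either side.

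How the members leaned with injury in wild type changed with 1 library. The log2 change was above 0 in 18 of 26 members, with a median of 0.28, against 53.3% of all genes with a median of 0.05. Among them were 4 of 4 ephrin-B, 6 of 8 EphA, 6 of 7 EphB and 2 of 7 ephrin-A genes. Without wild type uninjured library 1 it was above 0 in 11 of 26, with a median of −0.11, against −0.01 for all genes. These were 1 of 4 ephrin-B, 4 of 8 EphA, 5 of 7 EphB and 1 of 7 ephrin-A genes. In mutants it was above 0 in 11 of 26 members, with a median of −0.07, against 50.6% of all genes with a median of 0.006. The mutant count also changed with 1 library. It was 9 without mutant uninjured library 1 and 15 without mutant uninjured library 2. On CPM as deposited it was 21, with a median of 0.28, against 0.37 for all genes. Without wild type uninjured library 2, so with library 1 alone in that group, limma called 8 members in wild type and 25.1% of all genes; of the members, efna1b was lower and efna3b, efna5b, efnb2b, efnb3a, epha2b, epha4b and ephb3a were higher. In the average over genotypes it then called 6 members and 26.3% of all genes, and in mutants 1 member, efna1a, lower, and 7.23% of all genes. Without library 1 instead, efna1a was called lower in wild type, where 5.77% of all genes were called, and efna1a and efna1b in mutants, where 7.24% were. The same 2 genes were called lower in mutants without library 1 of both uninjured groups, where 9.68% of all genes were.

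**Figure D3:**
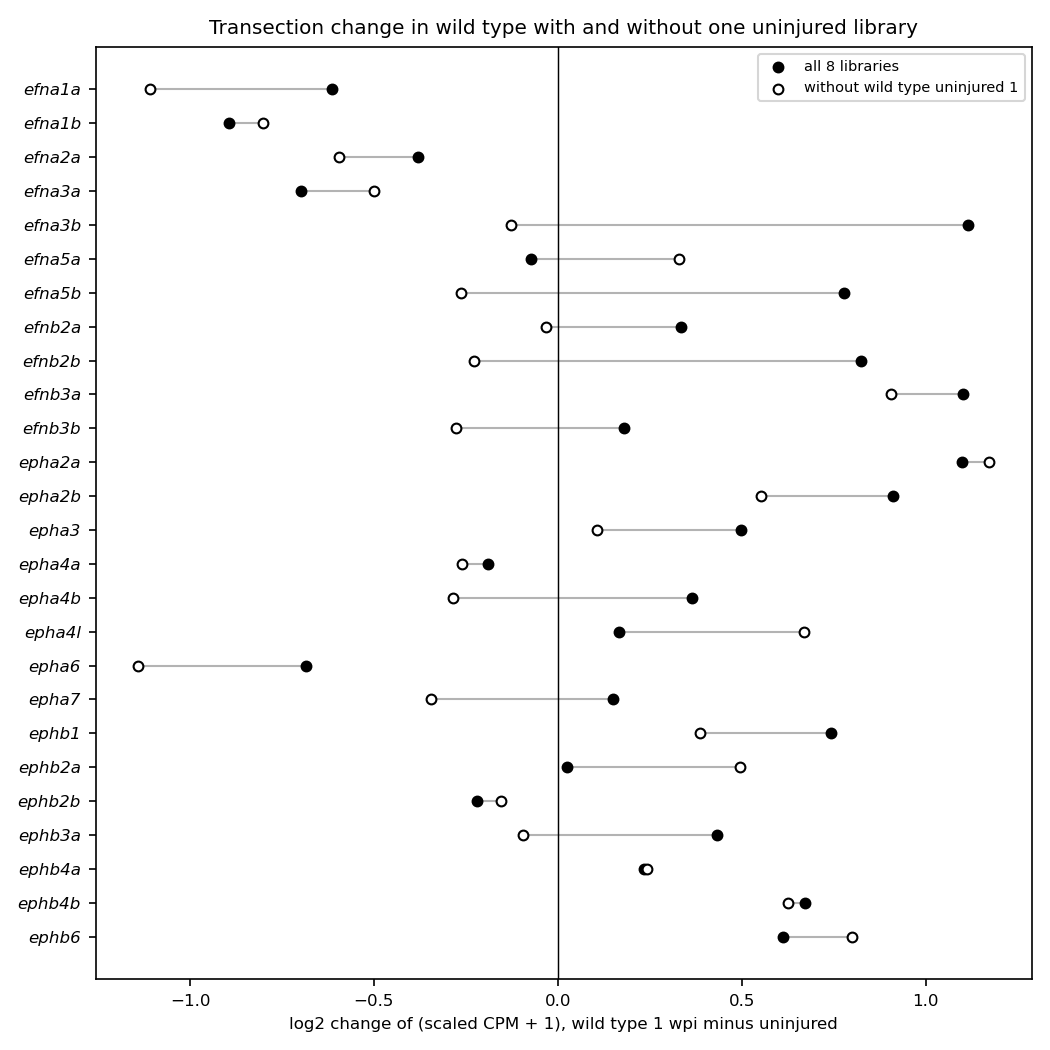
log2 change with injury in wild type (1 wpi minus uninjured) of each of the 26 tested members, with all 8 libraries (filled points) and without wild type uninjured library 1 (open points). The points of efna3b, efna5b and efnb2b cross from above 0 to below 0, while efna1a and efna1b lie below 0 both ways.

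No ephrin or Eph gene was called between mutants and wild types. In uninjured cord 0 of 26 passed, as did 0% of all genes tested by limma; 3 members, efna3b, epha2b and ephb1, had an unadjusted p under 0.05, or 11.5% against 6.49% of all genes. All 3 were higher in mutants, by 1.53 ± 0.64, 1.18 ± 0.37 and 0.91 ± 0.39 on the log2 scale. Wild type uninjured library 1, the lowest of all libraries for each of them, had 12, 0 and 28 reads. At 1 wpi 0 of 26 passed, against 0% of all genes, and 0 had an unadjusted limma p under 0.05, against 2.23% of all genes. Averaged over the injury states 0 of 26 passed, against 0.0157% of all genes, and 0 had an unadjusted limma p under 0.05, against 3.34%. edgeR called 0 members, and 0% of all genes, in each of these comparisons. DESeq2 called 0 members in each, against 0.443% of all genes in uninjured cord, 0.774% at 1 wpi and 0.149% in the average.

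In uninjured cord 9 members lay entirely higher in mutants (34.6%, against 14.7% of all genes) and 2 entirely lower (7.69%, against 13.6%). The 9 were efna1a, efna2a, efna3b, efna5b, epha2a, epha2b, ephb1, ephb4b and ephb6, and the count takes in the low values of wild type uninjured library 1. It also depended on the scaling. In CPM as deposited, only epha2a, epha2b and ephb1 stayed apart. For efna1a, efna2a, efna3b, efna5b, ephb4b and ephb6, mutant uninjured library 1 then fell below a wild type uninjured library. At 1 wpi 6 members lay entirely higher in mutants (23.1%, against 17.8%) and 9 entirely lower (34.6%, against 18% of all genes). The lower ones were efna1b, efnb2b, efnb3a, epha2a, epha2b, epha4l, ephb1, ephb4a and ephb6. Of these, ephb6 was tested only through its mean in wild type 1 wpi, the group where it is high, so its place there supports nothing. In both states the scaled values of efna1b were lower in both mutant libraries than in both wild type ones. The log2 differences were −0.35 ± 0.27 in uninjured cord and −0.34 ± 0.27 at 1 wpi. The 95% interval of their average was −0.77 to 0.07. In CPM as deposited the genotypes overlapped in both states. Mutant 1 wpi library 1 had 16.6 against 15.9 in wild type 1 wpi library 1. Mutant uninjured library 2 had 28.6 against 28.5 in wild type uninjured library 1. Without wild type uninjured library 2, limma called 5 members in uninjured cord, all higher in mutants (efna1a, efna3b, efna5b, efnb2b and epha2b), where it called 14% of all genes. In the average it then called 2, efna3b and efna5b, and 3.69% of all genes.

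For the interaction, the difference between the genotypes in how far a gene moved with injury (mutants minus wild type), 0 of 26 members passed, against 0.188% of all genes tested. By unadjusted limma p under 0.05 there were 2, epha2b and ephb1, or 7.69% against 3.94% of all genes. edgeR called 0 members and 0% of all genes, and DESeq2 0 members and 1.16% of all genes. For efna1b the difference was 0.01 ± 0.38, with a 95% interval of −0.83 to 0.85, and for efna1a it was −0.35 ± 0.49, with an interval of −1.44 to 0.74. Without wild type uninjured library 2, efna3b and efnb2b passed, both with a lower change in mutants, where 4.29% of all genes passed. A fit with 1 library left in a group assumes that this library varies like those of the other groups.

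The authors' deposited tables list more of these genes. For injury in wild type, the authors' deposited table has 14 of 28 members at an adjusted p under 0.05, 9 higher and 5 lower, where it lists 35.2% of all 25309 entries. For efna1b the authors' deposited table gives a log2 fold change of −0.98 (SE 0.152, adjusted p = 1.27e-09), for efna3b 1.48 and for epha2b 3.03. The values of efna3b and epha2b include the 12 reads of efna3b and 0 reads of epha2b in wild type uninjured library 1. For uninjured mutants against uninjured wild type, the authors' deposited table has 8 members, 5 higher and 3 lower, where it lists 21.6% of all entries. For mutants against wild type at 1 wpi it has 1, ephb4a, at −0.84 (SE 0.244, adjusted p = 0.0131), where the authors' deposited table lists 5.76% of all entries.

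Reads of a b copy over those of its a copy compare the copies within a library and need no scaling between libraries. These pairs were looked at after the values were seen, and how the authors' counting shared reads between similar copies is not given in the sources used here. The ratio efna3b to efna3a was 0.0536 in wild type uninjured library 1 and 0.903 to 2.00 in the other 7 libraries. The ratio efna5b to efna5a was 0.118 there and 0.842 to 1.98 elsewhere, and efnb2b to efnb2a was 0.0814 there and 0.163 to 0.324 elsewhere. For epha4b to epha4a it was 0.581 there and 1.11 to 1.72 elsewhere. In reads, efna3a (224) and efna5a (119) lay within the range of the other libraries there. In scaled CPM both were at their highest in that library. efna3a had 12.01 there against at most 9.06 elsewhere, and efna5a 6.38 against at most 5.60. The low ratios thus take in high a copies as well as low b copies. efnb2a, with 307 reads against 495 to 828 elsewhere, was at its lowest there. The ratio epha2b to epha2a was 1.96 and 2.04 in the uninjured mutants and 0 to 1.00 in the other 6 libraries. The ratio efna1b to efna1a was 1.61 and 1.21 in mutant 1 wpi, 2.01 and 2.24 in wild type 1 wpi, 1.25 and 1.34 in uninjured mutants, and 3.94 and 1.65 in uninjured wild type. Both mutant groups had lower efna1b to efna1a ratios than the wild type group of the same state. The epha2b to epha2a ratio went the other way in both states, with 0.750 and 0.771 in mutant 1 wpi and 0.593 and 0.465 in wild type 1 wpi. The share of all copy pairs that lie apart like this was not counted, so these cannot be set against it.

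**Figure D4:**
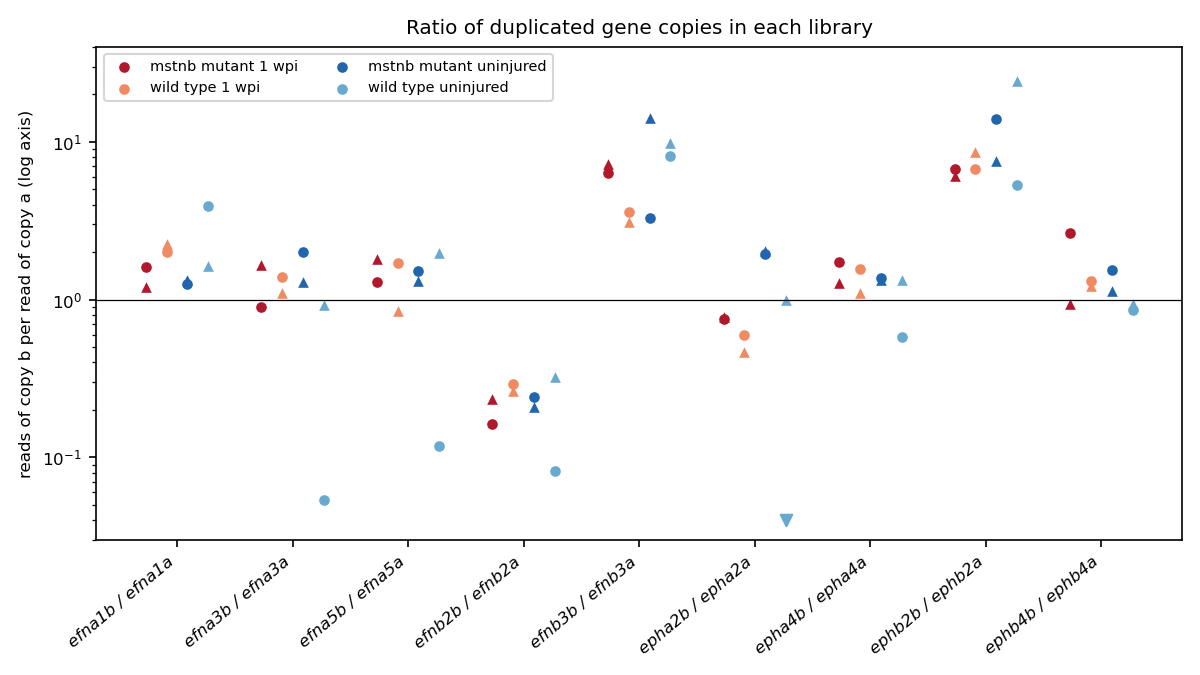
Reads of the b copy over reads of the a copy in each library, by gene pair, on a log axis; a downward triangle at the bottom marks a ratio of 0. Wild type uninjured library 1 lies apart on the low side for efna3, efna5, efnb2 and epha4, on the high side for efna1, and at 0 for epha2. Both uninjured mutant libraries lie at about 2 for epha2.

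Signalling partners of the family, such as adaptors, exchange factors and kinases, were followed through a list of 59 genes, of which 57 were tested. With injury averaged over genotypes 3 rose and 0 fell, where 5.49% of all genes were called higher and 2.97% lower, and the rest did not pass. rac1a, a GTPase of actin remodelling, had 246 and 221 scaled CPM in mutant 1 wpi and 281 and 252 in wild type 1 wpi, against 119 and 121 in uninjured mutants and 133 and 112 in uninjured wild type. Its log2 change was 1.03 ± 0.16 (limma adjusted p = 0.00367), and injured and uninjured libraries did not overlap. sdcbp2, a syntenin gene whose mammalian relatives bind the tail of ephrin-B, had 272 and 223 scaled CPM in mutant 1 wpi and 256 and 221 in wild type 1 wpi, against 105 and 69.7 in uninjured mutants and 37.2 and 71.4 in uninjured wild type. Its log2 change was 1.85 ± 0.23 (limma adjusted p = 0.00132).

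chn2, a chimaerin that switches off Rac and is related to a mammalian effector of EphA4, had 20.9 and 19.995 scaled CPM in mutant 1 wpi and 18.2 and 19.9 in wild type 1 wpi. In uninjured cord chn2 had 5.49 and 9.36 in mutants and 3.00 and 10.99 in wild type. Its log2 change was 1.46 ± 0.33 (limma adjusted p = 0.0231), a call lost when mutant uninjured library 1 or any 1 of the 4 injured libraries was left out. Within wild type, where 2.15% of all genes were called higher, 2 partners rose, rac1a by 1.12 ± 0.22 (limma adjusted p = 0.0274) and sdcbp2 by 2.18 ± 0.33 (limma adjusted p = 0.00904), and 0 fell. The wild type call of rac1a was lost without any 1 injured library and with the 4 wild type libraries fitted alone (limma adjusted p = 0.145). It was also lost with the library number as a block (1.13), where injured wild type rests on its library 1. The wild type call of sdcbp2 was lost without either injured wild type library. Within mutants, 0 of 57 partners passed by limma, where 5 had an unadjusted p under 0.05, or 8.77% against 12.9% of all genes. edgeR called 0 partners in mutants and DESeq2 called 2, rac1a and sdcbp2, where it called 4.65% of all genes. In mutants sdcbp2 also passed limma with the library number as a block (1.52, adjusted p = 0.0473), with the 4 mutant libraries fitted alone (1.57, adjusted p = 0.00535) and without the 2 libraries with the highest oocyte marker sums (adjusted p = 0.0396). rac1a passed in mutants with the 4 mutant libraries alone (1.01, limma adjusted p = 0.0183), and so did chn2 (1.44, limma adjusted p = 0.0176). That fit called 1035 of 18487 genes, and the fit with the block 434 of 19114, against 243 in the main fit. On CPM as deposited rac1a (limma adjusted p = 0.0229) and sdcbp2 (limma adjusted p = 0.0134) passed in mutants, where 610 of 19114 genes were called. In mutants rac1a, sdcbp2 and chn2 passed too without either 1 of the uninjured wild type libraries. Between genotypes in uninjured cord, sdcbp2 was called higher in mutants without wild type uninjured library 2, with a log2 difference of 1.12. These fits without 1 library also called a larger share of all genes, as given above. With all 8 libraries, no partner passed limma, edgeR or DESeq2 between genotypes or in the interaction. By unadjusted limma p under 0.05 there were 4 partners in uninjured cord, or 7.02% against 6.49% of all genes, and 1 at 1 wpi, or 1.75% against 2.23%. There were 2 in the average, or 3.51% against 3.34%, and 1 in the interaction, or 1.75% against 3.94%. The summed macrophage and microglia markers were higher in all injured libraries, a sum carried by apoeb, with 9 of 13 markers called higher. The part of these markers in the partner results was not tested.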

How the data were processed

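The 4 deposited tables hold the same 25309 entries and the same 8 library columns in CPM, read counts scaled by the authors to each library's total. Per the file headers they also hold baseMean, a mean normalized read signal, log2 fold changes and their standard errors, a score named stat, and p-values of the authors' comparisons. The tools named in the submitters' processing notes are Bowtie2, Cufflinks and Cuffdiff, with no version. How reads were counted, on which strand and on which build is not given in the sources used here, so reads of similar copies or of overlapping genes may be shared in an unknown way.

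Every deposited CPM value was a whole number of reads within 0.01 reads (100% of values), which gave the depths. As many as 16 symbols of a table were absent from the table the values were read from. They were taken as symbols turned into dates. CPM values were compared between the tables over the symbols they shared. Groups came from the labels. A column numbered 3 was placed in wild type 1 wpi by its name and called library 3. All 28 members matched a RefSeq symbol.

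CPM was divided by TMM factors computed from the recovered reads (edgeR 4.0.16). In R 4.3.3, limma 3.58.1 (eBayes with a trend) was fitted to log2(scaled CPM + 1), with 4 group means over all 8 libraries and 4 residual degrees of freedom. Tests covered 19114 genes whose mean reached 1 deposited CPM in some group, 26 members among them; 24 members had a mean of at least 1 over all libraries. The pseudocount understates changes of low genes. A gene was called at a Benjamini-Hochberg adjusted p under 0.05 over all genes of the comparison; there were 7 comparisons. The written plan covered counts or CPM, and its part for CPM was followed. TMM scaling was planned because the mitochondrial and myelin share of reads differs between injured and uninjured libraries. Unscaled CPM also moved the median of all genes with injury. DESeq2 1.42.0 and edgeR's quasi-likelihood test on the recovered reads were alternatives. Errors on log2 values are limma standard errors.

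Named with values in every library were members called in any comparison and the 2 most abundant of each subfamily. The members, the partner list and the marker lists were chosen with earlier results of these data known. Radial glia and ependyma markers summed to 12037 to 15159 scaled CPM in injured and 7768 to 13812 in uninjured libraries, fibroblast markers to 683 to 1071 and 327 to 513, epidermis markers to 669 to 1069 and 239 to 700, erythrocyte markers to 639 to 909 and 1450 to 11264, and neuron markers to 7725 to 8699 and 6877 to 13030.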

Additional observations from a re-analysis of the deposited data

Results flagged for a closer look

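For 5 receptor genes, the groups lay entirely apart in both of a pair of comparisons, but in opposite directions. The share of all genes with such a reversal was not counted, so the 5 cannot be set against it. In a single comparison, 13.6 to 26.4% of all genes lay entirely higher or entirely lower. The injury change of epha2b was below 0 in mutants and above 0 in wild type, and their difference, mutants minus wild type, was −1.46 ± 0.53 on the log2 scale (limma adjusted p = 0.996). The same held for ephb1, with a difference of −1.45 ± 0.56 (limma adjusted p = 1), and for ephb4a, with −0.579 ± 0.46 (limma adjusted p = 1). Seen as the mutant minus wild type difference at 1 wpi minus that in uninjured cord, the groups lay on opposite sides for epha2b and ephb1, with the same −1.46 and −1.45, for epha2a, with −0.866 ± 0.48 (limma adjusted p = 1), and for ephb6, with −0.6 ± 0.48 (limma adjusted p = 1). None of these 5 differences passed the adjustment over all genes. For ephb4a the wild type side rested on 7.60 scaled CPM at 1 wpi against 7.51 in uninjured cord. In CPM as deposited its mutant groups overlapped, with 5.12 and 6.78 at 1 wpi against 4.19 and 7.86 in uninjured cord. epha2b had 0 reads and ephb1 28 reads in wild type uninjured library 1, and epha2b had 16 and ephb1 76 in wild type uninjured library 2. The uninjured side of epha2a rested on 24 and 23 reads in mutants against 15 and 16 in wild type. ephb6 was tested only because wild type 1 wpi reached a mean of 1 deposited CPM (1.34 and 1.40), so the group that is high there also let it pass the filter, and its reversal supports nothing.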

How the results depend on the processing

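Of 3548 gene-level alternative values, 56 passed only under the alternative, 20 lost a call and 3472 did neither. Values that were called kept their direction. The 3472 include values called in neither fit, and for those the count does not follow the sign. Some of them crossed 0, as efna3b, efna5b and efnb2b did in wild type without wild type uninjured library 1. Of the ephrin and Eph genes, CPM as deposited called 0 with injury averaged over genotypes, against 1 with TMM scaling. DESeq2 called 1 in wild type and 2 in the average. Without wild type uninjured library 1 and mutant 1 wpi library 1, the libraries with the highest oocyte marker sums, 2 were called in the average. Without library 1 of both uninjured groups, chosen after seeing the data, 2 were called in wild type, 2 in mutants and 3 in the average. Leaving out 1 library gave 0 to 8 in wild type, 0 to 2 in mutants, 0 to 6 in the average, 0 to 5 between genotypes in uninjured cord, 0 to 2 for the genotype average and 0 to 2 for the interaction.

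Over all genes the counts were 648 with injury in wild type, 243 in mutants, 1617 in the average, 0 between genotypes in uninjured cord, 0 at 1 wpi, 3 for their average and 36 for the interaction. In that order DESeq2 gave 1707, 854, 2752, 83, 148, 28 and 222. Without library 1 of both uninjured groups they were 2578, 1894, 3913, 105, 243, 77 and 193. CPM as deposited gave 610 in mutants, 51 at 1 wpi and 108 for the interaction. No filter gave 402 in wild type and 0 for the interaction. A pseudocount of 0.25 gave 57 for the interaction. edgeR gave 0 for the genotype average and 0 for the interaction. The groups compared alone gave 112 in wild type, 1035 in mutants and 240 at 1 wpi. Without the 2 libraries richest in oocyte markers, 401 were called in mutants, 13 and 53 between genotypes in uninjured cord and at 1 wpi, 9 for their average and 71 for the interaction. Leaving out 1 library gave 11 to 4851, 9 to 1400, 497 to 5095, 0 to 2715, 0 to 145, 0 to 714 and 0 to 831 in the order above. Each such fit leaves 1 group with a single library. The cause was not tested.

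Whether the library numbers pair the samples is not settled. The labels tie them to no batch, and the injured wild type columns carry 1 and 3. Deviations of libraries numbered 1 correlated at 0.188 to 0.255 between the 3 groups with libraries 1 and 2. Between injured wild type and these groups they correlated at 0.167, 0.0145 and −0.00809. With the number as a replicate block, 415 genes were called in wild type, 434 in mutants, 77 between genotypes in uninjured cord, 111 at 1 wpi, 0 for their average and 147 for the interaction; efna1b stayed the 1 member called, in the average (adjusted p = 0.0361).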
